A study of Mus musculus with 39 samples.

Results

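Notch and RBPJ were mapped in the embryonic mouse cortex by Targeted DamID (TaDa), and peaks of the 4 resulting lists were merged by the authors into 20809 nuclear consensus sites. Described here are the 1081 consensus sites of 5000 bp or more, 5.19% of the total, which carry 14.8% of all bases under consensus sites. They were chosen by their deposited width, so width and whatever follows from it are given as a description and not as a test. Their midpoints lie on the 19 autosomes and the X chromosome.

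TaDa joins the protein under study to the bacterial enzyme Dam, which methylates the adenine of nearby GATC words, and the marked fragments are then amplified and sequenced. Wild-type MF1 embryos received plasmids by in utero electroporation at E13.5, and each sample was an electroporated cortex taken at E14.5. The Hes5 promoter drove the fusions in radial glial cells (RGCs), the neural stem cells of the cortex, and the Tα1 promoter, a fragment of Tuba1a, drove them in intermediate progenitor cells (IPCs), their neurogenic daughters. RBPJ (the human protein) was profiled in 3 RGC and 3 IPC samples. Notch was profiled in 4 RGC samples, of which 2 carried the mouse intracellular domain NICD and 2 the membrane-tethered NdECD form that lacks the extracellular domain, and in 4 IPC samples, all with NICD. Dam-only samples with no fused protein served as controls, 5 in RGCs (of which the labels name 4 beside the ratio tracks) and 4 in IPCs, and the lists of a cell type share them. The fusions add Notch or RBPJ to the cells' own, and the cell type rests on the plasmid promoter rather than on sorting. Each list is pooled over its samples, so neither depth per sample nor the spread between replicates can be read, and intervals below are Wilson 95% intervals that cover counting error over sites only.

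Notch receptors are cleaved when a ligand on a neighbouring cell engages them, and the freed NICD enters the nucleus and joins the DNA-binding protein RBPJ to activate target genes. In the cortex this keeps RGCs from differentiating, mainly through the Hes repressors. RBPJ is known to bind the word TTCCCA and its reverse complement TGGGAA.

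Among the wide sites that were named by rule, 5 covered the start site of a Notch pathway or Hes gene and could be given a window. For each, the 120-bp window with the most TTCCCA words outside annotated untranslated regions is shown on the plus strand of mm10, with the word in capitals on either strand. The windows were chosen for these words, so their number is no finding. The Hes1 window, at chr16:30065160-30065279, ends 61 bp upstream of a Hes1 start site and holds 2 words in the same orientation. The Hes7 window, chr11:69119857-69119976, lies 428 bp upstream of the Hes7 start site, and the Lfng window, chr5:140607119-140607238, lies 82 bp upstream of an Lfng start site. The Nrarp window, chr2:25177721-25177840, lies 2918 bp upstream of the gene, and the Notch1 window, chr2:26501108-26501227, lies 2595 bp downstream of the start site with 3 words. The Emx2 window, chr19:59471223-59471342, is 8421 bp downstream of the Emx2 start site and is shown as an example of a patterning gene. The Emx2 site was called in all 4 lists, but this window of it lies under the RGC RBPJ peak alone.
Hes1: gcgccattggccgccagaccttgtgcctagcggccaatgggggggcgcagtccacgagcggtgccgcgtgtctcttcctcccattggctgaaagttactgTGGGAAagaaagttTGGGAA
Hes7: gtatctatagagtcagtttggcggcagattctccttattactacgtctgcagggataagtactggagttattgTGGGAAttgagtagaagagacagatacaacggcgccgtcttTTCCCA
Lfng: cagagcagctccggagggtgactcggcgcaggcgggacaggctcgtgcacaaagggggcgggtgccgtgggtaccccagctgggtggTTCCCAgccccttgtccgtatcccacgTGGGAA
Nrarp: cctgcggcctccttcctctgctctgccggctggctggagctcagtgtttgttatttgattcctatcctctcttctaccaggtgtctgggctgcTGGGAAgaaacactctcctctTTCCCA
Notch1: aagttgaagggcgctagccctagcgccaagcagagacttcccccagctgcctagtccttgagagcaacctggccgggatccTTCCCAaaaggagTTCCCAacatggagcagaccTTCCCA
Emx2: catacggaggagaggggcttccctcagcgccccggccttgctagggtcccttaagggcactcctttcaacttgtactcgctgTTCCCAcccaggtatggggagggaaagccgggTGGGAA

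The wide sites ran from 5002 to 14692 bp, with a median of 5920 bp against 1890 bp over all sites. Their number fell steadily with width, to 506 at 6000 bp or more, 120 at 8000 bp or more, 37 at 10000 bp or more and 4 at 14000 bp or more. The limit cuts a continuous range. The sites just inside it were those near Mrm3 and Sox6, both 5002 bp, and near Gpc6, 5005 bp. Just outside were sites near Zbtb16, 4998 bp, and near Cd83 and Slc26a7, both 4999 bp.

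**Figure D1:**
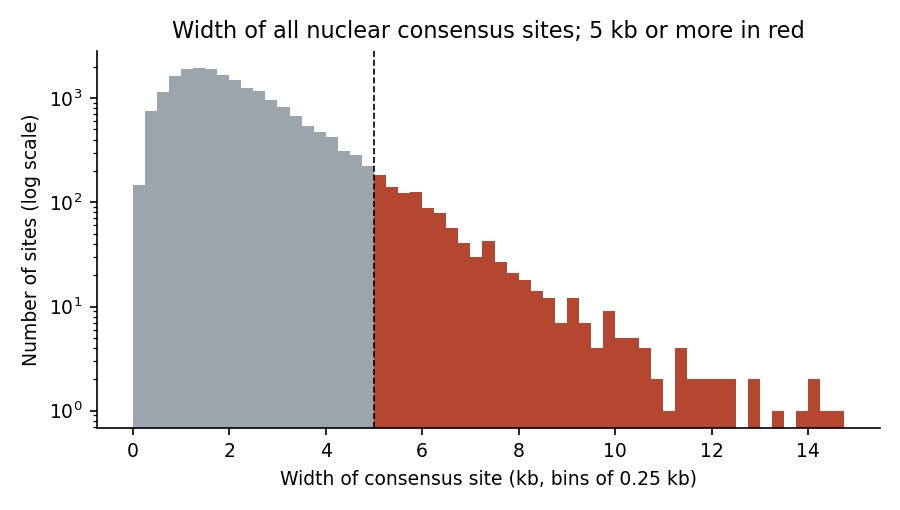
Number of nuclear consensus sites (log scale) by width in bins of 0.25 kb, with the limit of 5 kb as a dashed line. The 1081 sites to the right of it, in red, form the tail of a single distribution and reach 14692 bp.

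Most of the width came from single peaks of a single list rather than from merging. In 1001 of 1081 wide sites (92.6%), at least 1 peak of 1 list was 5000 bp or wider by itself. Of the 1081, 459 (42.5%, interval 39.5 to 45.4%) were a single peak called in 1 list and no other. In another 337 (31.2%), 1 peak spanned the whole site and peaks of other lists lay inside it. In 205 (19.0%), a peak passed the limit and merging lengthened the site further, by a median of 161 bp and at most 5568 bp, near Zfp608. Only 80 sites (7.40%, interval 5.99 to 9.12%) owed their membership to merging. Sites spanned by 1 peak were nonetheless less frequent among wide sites (73.6%) than among all sites (92.6%). Sites called in 1 list made up 42.5% of wide sites, beside 82.9% of all sites. Sites holding 2 or more peaks of 1 list made up 7.31%, beside 0.591%. Merging thus had a larger part in wide sites than over all sites.

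The 80 merged sites had a median width of 5394.5 bp and a median widest peak of 4451.5 bp. Of them, 48 joined lists of both cell types and 32 joined RGC RBPJ with RGC Notch alone. In 15 of the 80, 2 or more peaks of the same list were bridged by another list. The extreme case was the site over the start of Klf7, a Krüppel-like transcription factor, where peaks of at most 2807 bp made a site of 6629 bp. The other sites with the shortest single peaks were near Tenm2 (2819 bp in a site of 5293 bp), Casz1 (3087 bp in 5752 bp), Ptn (3163 bp in 5403 bp) and Arhgap12 (3277 bp in 5082 bp). At Ptn, which encodes the growth factor pleiotrophin, peaks of all 4 lists met.

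**Figure D2:**
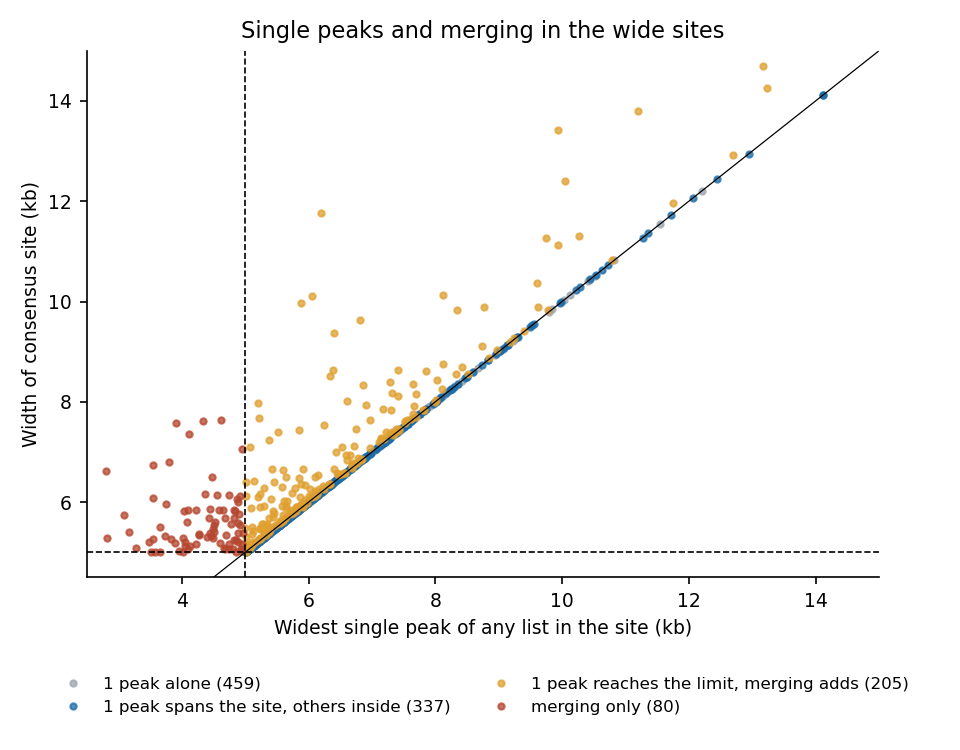
Width of each of the 1081 wide sites against its widest single peak, both in kb, with dashed lines at 5 kb and the diagonal where both are equal. The 796 sites on the diagonal are spanned by 1 peak, and the 80 red points left of the vertical line reach 5 kb only after merging.

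RGC lists supplied nearly all of the wide peaks. Of 14097 RGC RBPJ peaks, 778 (5.52%) were 5000 bp or wider, as were 300 of 3702 RGC Notch peaks (8.10%). In IPCs there were 17 such peaks of 5497 for RBPJ (0.309%) and 12 of 2157 for Notch (0.556%). The widest single peak of a site belonged to RGC RBPJ in 785 sites, to RGC Notch in 274, to IPC RBPJ in 14 and to IPC Notch in 8. With the RGC lists alone, 1034 of the sites would still reach the limit. With the IPC lists alone, 34 would.

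Width and the number of lists are tied by construction, since a wider site can meet more peaks and joining peaks of more lists widens a site. RGC RBPJ was called in 962 wide sites (89.0%, interval 87.0 to 90.7%), beside 67.6% of all sites. RGC Notch was called in 484 (44.8%, 41.8 to 47.8%), beside 17.7%, and IPC Notch in 238 (22.0%, 19.6 to 24.6%), beside 10.1%. IPC RBPJ stood at 301 (27.8%, 25.3 to 30.6%), beside 26.2%, so its share among wide sites was near that over all sites.

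The IPC peaks inside wide sites took up less of them than the RGC peaks that mostly set their width. The widest peak of a site had a median of 2125 bp for IPC RBPJ and 2110.5 bp for IPC Notch. Over all peaks of those lists the medians were 1398 bp and 1284 bp. That difference is no finding, since only the widest peak per site was taken and the sites were chosen by width. An IPC RBPJ peak, where present, covered a median of 32.3% of the site, and IPC Notch 34.6%, against 100% for RGC RBPJ and 94.0% for RGC Notch. IPC RBPJ covered at least 50% of the site in 66 of 301 and IPC Notch in 60 of 238. By bases, 69.5% of the wide sites lay under 1 list, 24.4% under 2, 5.25% under 3 and 0.872% under all 4.

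Both proteins were called in RGCs in 371 wide sites (34.3%), beside 7.77% of all sites, and in IPCs in 107 (9.90%), beside 2.36%. RBPJ was called in both cell types in 281 (26.0%), beside 6.85%, and Notch in both in 128 (11.8%), beside 2.37%. All 4 lists met in 52 (4.81%), beside 0.678%, and in 40 of these 52 at least 1 base lay under all 4. RGC RBPJ alone was the most frequent combination, with 363 sites, then RGC RBPJ with RGC Notch, with 193, and RGC RBPJ with IPC RBPJ, with 121. IPC RBPJ alone gave 3 wide sites of 3810 with that combination, and IPC Notch alone gave 0 of 739.

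**Figure D3:**
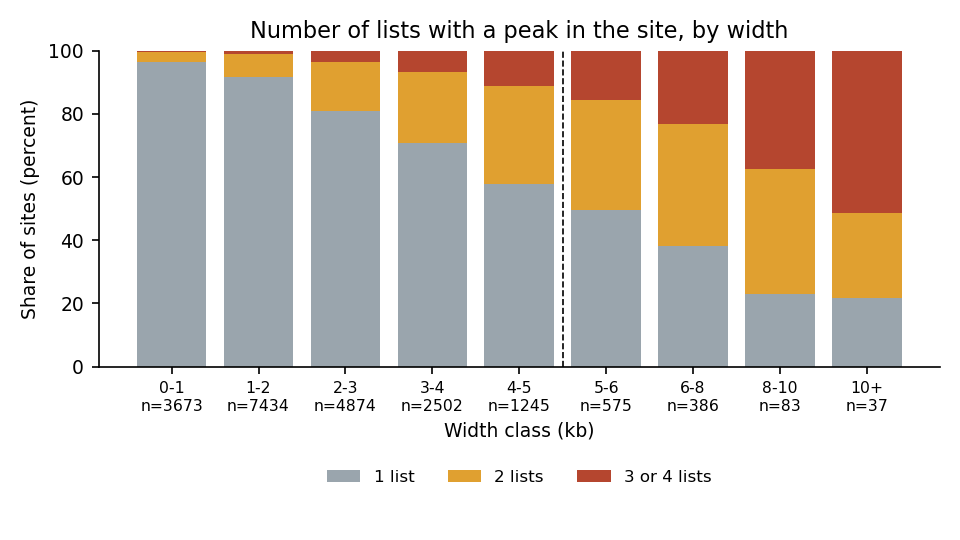
Share of sites with a peak of 1, 2, or 3 or 4 lists, by width class in kb, with the number of sites under each bar and the 5-kb limit as a dashed line. Sites of 1 list fall from 96.4% below 1 kb to 21.6% at 10 kb and above.

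The authors sorted all sites into 8 k-means clusters of binding signal averaged over the site's length. Clusters 2, 4, 6 and 7, in which signal of both proteins defines the group, held 525 wide sites (48.6%, interval 45.6 to 51.5%), beside 36.3% of all sites. Cluster 5 was the most frequent, with 335 wide sites (31.0%, beside 22.5% of all), and RGC RBPJ was called in 97.3% of them. Cluster 6 held 208 (19.2%, beside 10.8%). In these, RGC RBPJ was called in 92.8%, IPC Notch in 54.8%, RGC Notch in 46.6% and IPC RBPJ in 31.7%. Cluster 1, in which RGC Notch was called in 82.3% of wide sites, held 175 (16.2%, beside 10.5%). Cluster 7 held 163 (15.1%, beside 11%). Cluster 4 held 112 (10.4%, beside 9.79%) and cluster 2 held 42 (3.89%, beside 4.76%), so these 2 were near their shares over all sites. Cluster 3 held 7 wide sites of its 3384, and cluster 8 held 39 of its 3004.

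Among the 37 sites of 10000 bp or more, 40.5% were in cluster 6 and 21.6% in cluster 7, and none were in clusters 1, 3 or 8. The 39 wide sites of cluster 8 were nearly all single calls, with RGC RBPJ called in every one and 97.4% of them in 1 list. Only 5.13% of them lay on a protein-coding start site, against 47.2% in cluster 7. Their median GC content was 41.5%, and that of wide sites in cluster 7 was 48.7%. Over all sites the same clusters stood at 41.3% and 48.4%.

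**Figure D4:**
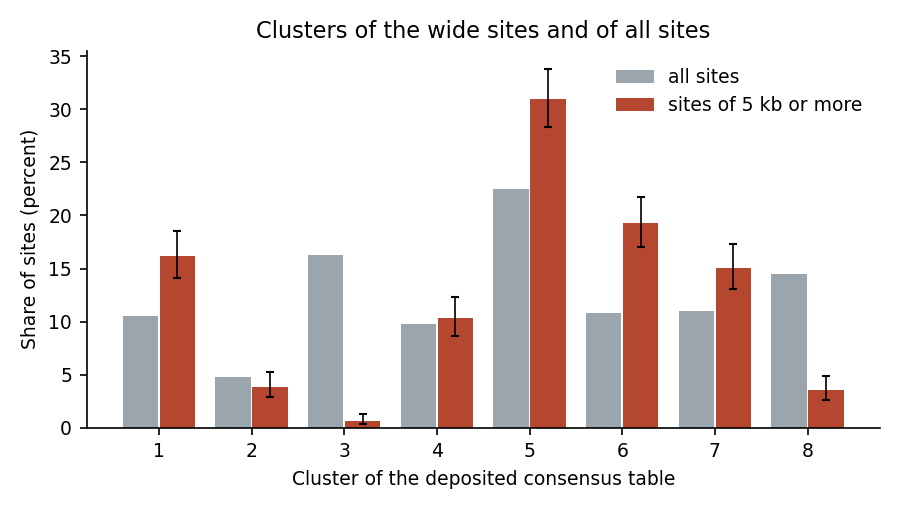
Share of sites in each of the 8 deposited clusters, for all 20809 sites in grey and for the 1081 wide sites in red with Wilson 95% intervals. Clusters 3 and 8 hold 16.3% and 14.4% of all sites but 0.648% and 3.61% of the wide ones.

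A protein-coding start site lay under 377 wide sites (34.9%, interval 32.1 to 37.8%), beside 16.6% of all sites and 22.8% of sites of 2000 to 4999 bp. A wider site covers a start site more readily. When only start sites within 500 bp of the midpoint were counted, wide sites stood at 10.5%, all sites at 10.5% and sites of 2000 to 4999 bp at 12.3%. The midpoint was in an intron in 600 (55.5%), in an exon in 112 (10.4%), in the 5 kb upstream of a start site in 64 (5.92%) and elsewhere between genes in 305 (28.2%). Over all sites 47.3% were in introns, 8.05% in exons, 5.94% upstream and 38.7% between genes. The median distance from site edge to start site was 9482 bp, beside 21051 bp over all sites. Over 100 kb away lay 167 wide sites (15.4%), beside 22.7% of all sites.

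Some wide sites took in a whole protein-coding gene. This was so for 26 sites (2.41%), among them those of Hes1, Hes7, Nrarp, Neurog2, Fezf2, Fzd8, Dlx2, Jun and Tubb5. Others held Rpl13a, Hspa2, Cox6b2, Catsperz or Tmem95. A wider site takes in a short gene more readily. The share over all sites was not computed, so the count is a description only.

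The 1081 sites were nearest to 837 protein-coding genes, 3.82% of the 21938 in the annotation and 9.86% of the 8492 with a site of any width. Of these, 684 had 1 wide site, 153 had 2 or more and 17 had 4 or more. Prdm16, a chromatin regulator of RGC identity, led with 13 of its 19 sites wide, 110.9 kb in all. Zfp608 had 9 of 37, Msi2 (an RNA-binding protein of progenitors) 8 of 25, Sorl1 (a sorting receptor) 7 of 24 and Meis2 (a homeodomain factor) 6 of 23. These are assignments by nearest start site only. The 7 wide sites of Sorl1 all lay between genes, 56.9 to 383 kb from its start site. Those of Zfp608 ranged from its start site to 553 kb away.

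At Prdm16, 3 sites were among the 15 widest of all. The site at chr4:154546072-154560336 was 14265 bp wide in an intron, with RGC RBPJ over 13232 bp, IPC Notch over 7840 bp in 2 peaks and IPC RBPJ over 2602 bp. The next, chr4:154520599-154534720, was in cluster 5, and an RGC Notch peak spanned all 14122 bp while RGC RBPJ covered 4042 bp. The last of them, chr4:154563041-154575247, was called in RGC RBPJ alone over its 12207 bp. A further one, chr4:154498786-154505332, had no RGC call. IPC Notch spanned its 6547 bp, and IPC RBPJ covered 1315 bp. Neighbouring wide sites of this gene thus differed in the lists that made them.

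The widest site of all lay at Pax6, a homeodomain and paired-domain factor of RGCs, at chr2:105663397-105678088. It was 14692 bp wide and covered 12 annotated start positions of the gene. RGC RBPJ covered 13175 bp and RGC Notch 12955 bp in 2 peaks, while IPC RBPJ covered 3994 bp and IPC Notch had no peak. Merging added 1517 bp to the widest peak.

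Among receptors and ligands, Notch1 and Notch2 had wide sites, and Notch3, Notch4, Dll1, Dll3, Dll4, Jag1 and Jag2 had none. The Notch1 site, chr2:26495635-26509749, was 14115 bp wide, spanned by 1 RGC RBPJ peak, with RGC Notch over 3887 bp and IPC Notch over 1272 bp. It covered the start site and held 24 TTCCCA words. It overlapped 186 bp of Notch1 coding sequence, and Notch1 is the gene from which the plasmid-borne Notch fusions derive. The RGC RBPJ samples, whose peak spans the site, carried a fusion of human RBPJ and not of Notch1. How much of the signal at this site came from plasmid was not tested. At Notch2, 2 intronic sites of 7814 and 5259 bp were both spanned by RGC RBPJ peaks.

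Among modulators and cofactors, 5 of 17 genes had a wide site. Of their 45 sites 5 were wide (11.1%), beside 5.19% of all sites. Nrarp, a Notch-induced inhibitor of the pathway, had the widest, 10825 bp at chr2:25176345-25187169, with RGC RBPJ over 10783 bp, IPC Notch over 5948 bp, RGC Notch over 4314 bp and IPC RBPJ over 2146 bp. All 4 lists shared 1421 bp of it. Nepro, a gene that maintains early progenitors, was nearest to a site of 9892 bp 53.7 kb away in all 4 lists, with no base under all 4. Lfng, a glycosyltransferase that modifies Notch receptors, had a site of 7205 bp over its start site with RGC RBPJ throughout and IPC RBPJ over 3934 bp. Rbpj itself had an intronic site of 6256 bp, 28.1 kb from its start site, and Maml3, a coactivator, had one of 5256 bp over a start site.

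Among the Hes and Hey repressors, 3 of 9 genes had wide sites, Hes1, Hes5 and Hes7. Of the 9, 6 had a site of any width, so the share was 3 of 6, beside 9.86% of all such genes. Of the 23 sites of this list 5 were wide (21.7%), beside 5.19% of all sites. The Hes1 gene lay whole inside a site of 7627 bp at chr16:30062417-30070043, where RGC RBPJ covered 7515 bp, RGC Notch 4958 bp, IPC Notch 3791 bp and IPC RBPJ 3108 bp. All 4 lists shared 1664 bp. A second wide site of 5866 bp lay 2.94 kb from a Hes1 start site, and another of 8678 bp lay 219 kb away, both called in RGC RBPJ alone. The Hes7 site, 6874 bp, had RGC RBPJ over 6779 bp and IPC RBPJ over 5685 bp and neither Notch list. The wide site of Hes5 was 12.7 kb from the gene and 5400 bp long, called in RGC Notch, IPC RBPJ and IPC Notch. The site on the Hes5 start itself measured 4063 bp and that on the Tuba1a start 3890 bp, so neither promoter carried on the plasmids lies under a wide site.

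**Figure D5:**
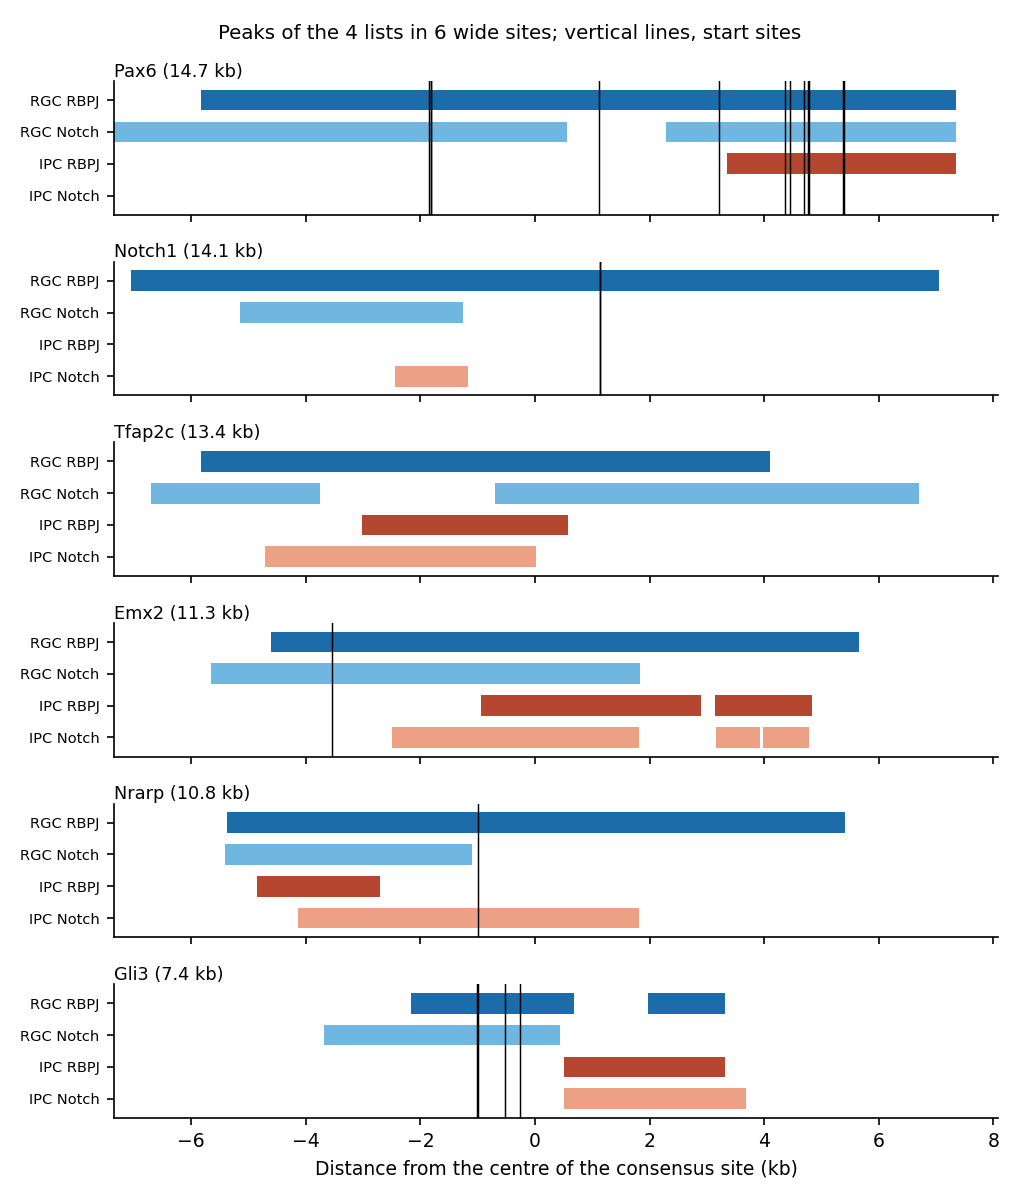
Peaks of the 4 lists in 6 wide sites, by distance from the site's centre in kb, with protein-coding start sites as vertical lines. RGC RBPJ spans 14115 bp at Notch1, while at Gli3 no peak exceeds 4107 bp and merging makes 7355 bp.

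Of the 18 gene lists compared, that of radial glia genes had the largest share of genes with a wide site, 15 of 20 (75.0%), beside 9.86% of all genes with a site of any width. By sites, 37 of its 185 were wide, a smaller share than the 21.7% of the Hes and Hey list. The lists were put together with earlier results of these data known, and genes with many sites have more chances of a wide one. The 15 include Fabp7, a lipid-binding protein of radial glia, with a site of 5175 bp in all 4 lists, and Lhx2, a LIM-homeodomain factor, with 3 wide sites of up to 7671 bp. Vim and Sox9 were members as well, and Nes, Slc1a3, Prom1, Ddah1 and Tnc had no wide site. Intermediate progenitor genes had 5 of 12, with none at Eomes, Insm1 or Btg2. Of the 38 sites of these genes 6 were wide (15.8%), beside 5.19% of all sites. The site assigned to Tfap2c among them, at chr2:172725738-172739156, was 13419 bp wide, 174 kb from the start site and called in all 4 lists. RGC Notch covered 10359 bp of it in 2 peaks, RGC RBPJ 9937 bp, IPC Notch 4730 bp and IPC RBPJ 3605 bp.

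Of the cortical patterning factors, 9 of 16 had wide sites. By sites, 14 of 92 were wide (15.2%), beside 5.19% of all sites. Emx2, which sets the caudal identity of the cortex, had 11311 bp at its start site, with 7 peaks of all 4 lists and 2761 bp under all 4, the longest such stretch among the sites named. Sp8, which acts rostrally, had 12919 bp, nearly all of it (12692 bp) an RGC RBPJ peak. Projection-neuron factors also had 9 of 16, and 18 of their 153 sites were wide (11.8%). The Fezf2 site, 10102 bp over the whole gene, joined 2 RGC RBPJ peaks, RGC Notch and IPC Notch.

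Proneural factors had wide sites at 3 of 11 genes. The Neurog2 gene lay in a site of 5618 bp spanned by RGC RBPJ with IPC RBPJ over 1279 bp, and a second site of 7095 bp lay 6.42 kb off. Sox factors had 6 of 13, the Meis and Pbx factors 3 of 9 and the Nuclear factor I family 2 of 4. By sites, 15.4% were wide for proneural factors and 10.4% for Sox factors. The share was 18.2% for Meis and Pbx and 10.4% for Nuclear factor I, beside 5.19% of all sites. An intronic Nfib site of 6704 bp was called in IPC RBPJ and in no other list. Near Sox21, a site of 6439 bp was called in both IPC lists and in neither RGC list.

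Of the signalling pathways, Hedgehog had a wide site at 5 of its 11 genes with a site of any width. Wnt had 6 of 24, Fgf 4 of 13, Bmp and Smad 5 of 18, and Ephs and ephrins 5 of 14. Over all genes with a site of any width the share was 9.86%. By sites, 10.3% were wide for Hedgehog, 8.75% for Bmp and Smad, 8.16% for Fgf and 7.78% for Wnt, beside 5.19% of all sites. For Ephs and ephrins, 7 of 144 sites were wide (4.86%), near the share over all sites. The Gli3 site, over the start of a Hedgehog effector, was 7355 bp and existed only by merging, with RGC RBPJ over 4183 bp in 2 peaks, RGC Notch over 4107 bp, IPC Notch over 3172 bp and IPC RBPJ over 2815 bp. The IPC peaks bridged the 2 RGC RBPJ peaks. Gli2 was spanned over 7290 bp by RGC RBPJ. Fzd8, a Wnt receptor, lay whole in a site of 10820 bp called in RGC RBPJ alone. The Fgfr2 site measured 10130 bp, and that of Sfrp1, a secreted Wnt antagonist, 8739 bp with IPC Notch over 6312 bp. Housekeeping genes had 2 of 15, Rpl13a and Polr2a, but only 8 of the 15 had a site of any width. Of their 12 sites, 2 were wide (16.7%). The Hox clusters had 0 of 38, with 6 sites at 5 genes in all, too few to read a low share from.

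The other sites among the 15 widest were near Zeb2 (13792 bp), Egln3 (12948 bp), Cdh4 (12444 bp), Elmsan1 (12396 bp), Zfhx4 (12066 bp), Auts2 (11969 bp), Zfp608 (11761 bp) and Rhbg (11716 bp). Zeb2, Zfhx4 and Zfp608 encode zinc-finger proteins. The Zfhx4 site held 8 peaks, the most of any wide site, and its 12066 bp were spanned by RGC Notch. Further sites of all 4 lists lay near Tmem161b (11361 bp), Tubb2b (10441 bp), Map1b (9833 bp), Cryzl2 (9532 bp), Tle1 (9380 bp), Meis2 (9271 bp) and Tnrc18 (8549 bp). Tubb2b and Map1b encode a tubulin and a microtubule-associated protein, and Tle1 a corepressor that works with Hes proteins.

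Wide sites and all sites were close in their density of the RBPJ word. Wide sites held a median of 7 TTCCCA words each, on either strand, and 1077 of 1081 held at least 1, beside 82.9% of all sites, as longer sequence would. Per kb, pooled over bases, they held 1.16 words and all sites 1.17, against 0.934 in the nuclear genome. In the central 2 kb at least 1 word was present in 88.9% of wide sites and 88.9% of all sites. The homeodomain word TAATTA stood at 0.317 per kb in wide sites, 0.358 in all sites and 0.401 in the genome. It holds no G or C, and these densities were not corrected for base content. Median GC content was 47.2% in wide sites and 45.3% in all sites, and the genome had 41.7%. A word is a match of letters, not a bound site.

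The median GC content of wide sites was 47.2%, and that of all sites 45.3%. GATC, the word that Dam methylates, occurred 2.87 times per kb in wide sites, 2.91 in all sites and 2.52 in the genome, and the longest stretch without it had a median of 977 bp in a wide site. The edges of wide sites lay a median of 7 bp from the centre of a GATC, against 18 bp over all sites, and 51.7% of them lay within 10 bp of one, against 46.5%. A wide site held a median of 18 GATC words, so most of them span many separate fragments.

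There were 2 exceptions that held no GATC at all, and both were called in IPC RBPJ alone, a combination with 3 wide sites. Over all sites, 2031 (9.76%) held no GATC, against 0.185% of wide sites. A wider site holds a GATC more readily. The 2 wide sites without GATC were singled out after their values were seen. One, near Gpr50 at chrX:71732628-71739556, was 6929 bp long, and the nearest GATC lay 219 bp outside one edge and 125 bp outside the other. The other, near Slc25a51 at chr4:45419122-45424388, was 5267 bp long, with GATC words 222 and 226 bp outside. Each thus lay between 2 consecutive GATC words. The remaining IPC RBPJ site, in Nfib, held 10 GATC words.

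Wide sites had more neighbours. A median of 2 other consensus sites had their midpoints within 50 kb, against 1 over all sites, and 243 wide sites (22.5%) had another wide site in that range, beside 9.77% of all sites. The share of a chromosome's sites that were wide ranged from 3.37% on chromosome 17 (24 of 713) to 7.12% on chromosome 4 (100 of 1405), the chromosome of Prdm16, beside 5.19% of all sites. It was 4.67% on X, and Y held 1 site, which was not wide.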

How the data were processed

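The series measured Notch and RBPJ occupancy by TaDa, and 14 of its 39 samples lie behind the 4 peak lists used here. On mm10, the authors ran MACS2 in broad mode on each combination of a fusion with a Dam-only sample, retained what recurred in all combinations of a condition, merged overlapping peaks of the 4 lists and clustered the merged sites by signal. The values deposited by the authors are positions in bp, start and end of each peak or site. How peak edges were set across pairs is not given in the sources used here. The 5 files held 0 columns of single samples, so depth and replicate error are unknown. The members and lists were chosen with earlier results of these data known.

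Merging the 4 lists again (overlap from 1 bp, abutting peaks joined) returned all 20811 deposited sites with identical bounds, of which 2 are mitochondrial and were left out. Genes were assigned by the nearest protein-coding start site in GENCODE M21 on GRCm38, the build of the files. Words, GC and repeats were read from the GRCm38.p6 sequence on both strands. For sites shorter than 2000 bp the central window of 2000 bp reaches beyond the site. No test was run, since width chose the members. Wilson intervals use a level of 95%, and medians an exact binomial interval. Sites named were the 15 widest, the 15 widest in all 4 lists, those of the 5 genes with the most wide sites, up to 3 per gene list, the 5 with the shortest widest peak, 3 on each side of the limit, and those on plasmid sequence. Other members of the gene lists were added after their values were seen. Some members are not reported here. Printed windows avoid annotated untranslated regions. Alternatives changed the width limit, the member rule, the chromosomes, the coverage a list needs, the gene set, the distance, the sequence window and the word. Merging, distances and word counts were tested on simulated data. Python 3.11.15, numpy 2.4.6, scipy 1.17.1 and matplotlib 3.10.9 were used.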

Additional observations from a re-analysis of the deposited data

Results flagged for a closer look

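The mitochondrial genome, which the report does not use, also held consensus sites, and both of them were over 5000 bp. They measured 6614 bp and 5498 bp, were placed in cluster 2, and were called in RGC RBPJ, IPC RBPJ and IPC Notch but not in RGC Notch. They drew attention as signal in sequence outside the nuclear chromosomes. The peaks were called against Dam-only samples, whose own levels were not analysed here.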

How the results depend on the processing

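Of 106 values recomputed under an alternative, 52 stayed within the interval of the reported value (for counts, within 1.5 times) and 54 moved. With autosomes only, no value moved. The width limit moved the most values. At limits of 4000, 6000 and 10000 bp there were 2326, 506 and 37 sites and 1634, 416 and 34 nearest genes. At these limits RGC Notch was called in 39.9%, 50.2% and 59.5%, IPC RBPJ in 24.4%, 35.4% and 48.6%, IPC Notch in 18.2%, 25.7% and 43.2%, and 1 list only in 50.7%, 34.4% and 21.6%. Sites identical to 1 peak made up 77.5%, 69.6% and 59.5%, and clusters 2, 4, 6 and 7 made up 45.0%, 54.5% and 70.3%. At 4000 and 10000 bp, RGC RBPJ was called in 86.1% and 100%, a single peak reached the limit in 95.3% and 81.1%, start sites were covered in 31.6% and 59.5%, and the median distance was 12172.5 bp and 0 bp. At 10000 bp the midpoint was in an intron in 64.9%, and the medians were 49.4% GC, 2.60 GATC and 1.17 TTCCCA per kb. These limits change which sites are members.

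Keeping the 1001 sites with a single peak of 5000 bp or more gave 45.9% called in 1 list, 79.5% identical to 1 peak and, by construction, 100% reaching the limit alone. When a list counted only where it covered 50% of the site, RGC RBPJ fell to 84.4%, RGC Notch to 38.3%, IPC RBPJ to 6.11% and IPC Notch to 5.55%, and 1 list only rose to 68.6%. With 1000 bp of cover, IPC RBPJ stood at 24.1% and IPC Notch at 19.5%. All annotated genes gave 42.5% on a start site and a median distance of 2070 bp, and midpoints gave 10.5% and 12743 bp. In the central 2000 bp the medians were 2.5 GATC, 1 TTCCCA and 0 TAATTA per kb, where a single word is a large step, and TTCCCAC stood at 0.196 per kb over the whole site. No paired analysis was possible because the lists are pooled and no result comes from a test. For the same reason no replicate could be left out, and depth is unknown.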
